A study of Homo sapiens with 6 samples.

Results

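The HOX genes are described here by cluster and paralog number. A gene was taken as a member when the deposited gene table listed it as protein-coding under a name made of HOX, the letter A, B, C or D and a number. This gave 39 of the 58735 genes in the table, 11 in the HOXA cluster, 10 in HOXB, 9 in HOXC and 9 in HOXD. A further row that carries the name HOXC5 is annotated as a processed transcript and was not a member.

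HOX genes encode homeodomain transcription factors that give cells of the embryo their position along the head-to-tail axis. They lie in clusters on different chromosomes, and genes at the same place in each cluster descend from a common ancestor and share a paralog number. Low numbers lie at the 3′ end of a cluster and act early and towards the head, and high numbers lie at the 5′ end and act late and towards the tail. HOX proteins bind DNA with PBX and MEIS cofactors, retinoic acid opens the 3′ end of the clusters, and Polycomb and trithorax proteins hold the genes off or on. The forebrain uses few HOX genes, whereas many glioblastomas and glioblastoma cell lines transcribe them.

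The samples were cultures of U251, a long-established human glioblastoma cell line, and their poly(A) RNA was sequenced. The NC group (n = 3) was given sterile deionized water and the TNF-α group (n = 3) was given 10 ng/mL recombinant human tumor necrosis factor-α, an inflammatory cytokine, and both were kept in culture for 24 h. Per the labels the 3 samples of each group are independent biological replicates of this cell line, with no change to the genome. The study asked what low-dose TNF-α does in glioblastoma cells, and the comparison below asks how the HOX genes stood in the NC cells and whether their levels differed after TNF-α.

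Each library had between 31992167 and 37897044 reads in genes, and 74564 reads over all 6 libraries lay in HOX genes. Of 10 markers of glioblastoma or astrocytic lines, 7 had an NC mean of at least 1 FPKM, among them VIM, NES, SOX2, SOX9, CD44 and GFAP, while AQP4 was at 0 in all libraries and S100B and CHI3L1 were at or near 0. The summed markers of oligodendrocytes, endothelial cells and leukocytes each stayed below 2 FPKM in every library, those of neurons (2 of 4 at an NC mean of at least 1) ran from 8.23 to 8.86 FPKM in the NC group and from 4.65 to 9.04 FPKM in the TNF-α group, and those of epithelia (1 of 4, KRT18) from 11.8 to 13.9 and from 9.18 to 33.95 FPKM. The TNF-α response was present in all 3 treated libraries, since the NF-kB inhibitor gene NFKBIA differed by 2.79 and the chemokine gene CCL2 by 5.33 on the log2 scale (adjusted p = 0.00415 and 0.000833, limma). The treated libraries were not alike. Across the tested genes, Pearson's r of log2(FPKM + 1) was 0.991 to 0.993 between NC replicates and 0.992 between TNF-α replicates 2 and 3, but 0.889 and 0.912 between TNF-α replicate 1 and those libraries. GC content and transcript length together took 39.3% and 38.2% of the variance of the log2 ratios in TNF-α replicates 2 and 3, against 1.41% to 16.7% in the other 4 libraries. The FPKM of all genes summed to 463340 and 408175 in TNF-α replicates 2 and 3, and to between 256373 and 266716 in the other 4 libraries, so that values scaled to the same total (TPM) are given beside FPKM where they move a result. The labels name no batch. HOX genes had a median GC content of 55.3% and a median length of 2423 bases, against 47.9% and 4639 bases over all tested genes. The part of this composition in any value below was not tested.

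Levels are given as FPKM, that is fragments per kilobase of gene length relative to the size of the library, as the authors deposited them, so that genes of different length can be compared. A gene was tested when 3 or more of the 6 libraries reached 1 FPKM. This left 21 HOX genes, 6 in HOXA and 5 in each other cluster. In bulk RNA, fewer cells that transcribe a gene and less RNA per cell cannot be told apart.

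U251 cells transcribed genes of all 4 HOX clusters, and HOXA was the lowest of them. In the NC group the summed level was 45.2 ± 2.06 FPKM for HOXD (SD, n = 3), 40.2 ± 1.51 for HOXB, 37.2 ± 0.53 for HOXC and 13.2 ± 1.10 for HOXA. The order of the 3 higher clusters depends on genes that share exons with others, since with members of under 10% exon overlap HOXC held 36.7% of the HOX total, HOXB 29.4%, HOXD 24.5% and HOXA 9.44%. Over all members HOXA held 9.72% of the HOX total of 135.7 FPKM although it has the most members. Within every cluster a few genes carried the sum. HOXB3 and HOXB7 had 16.8 and 14.01 FPKM of the HOXB sum, HOXC10 and HOXC13 had 14.4 and 7.39 FPKM of the HOXC sum, and HOXD9, HOXD10 and HOXD11 had 9.60, 16.8 and 10.1 FPKM of the HOXD sum.

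**Figure D1:**
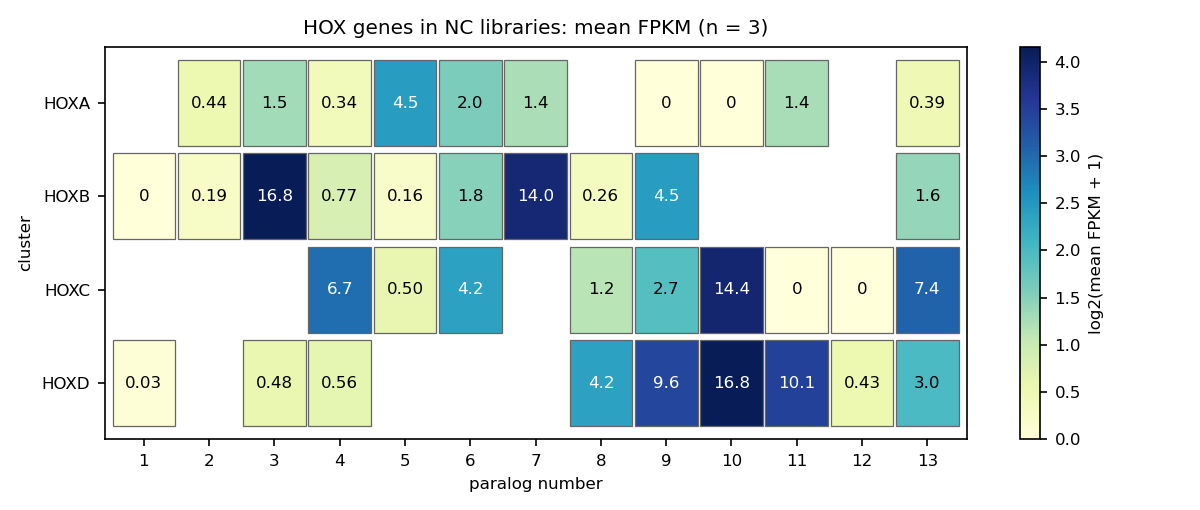
Mean level of 38 HOX genes in the NC libraries (n = 3). Columns are paralog numbers, rows are clusters, the number in a box is the mean FPKM and the colour is log2(mean FPKM + 1), and only genes reported here have a box. The highest boxes are HOXB3, HOXD10, HOXC10 and HOXB7, and 5 boxes hold 0.

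By paralog number, group 10 was highest, with 31.2 ± 1.04 FPKM in the NC group from HOXC10 and HOXD10 alone, since HOXA10 had no reads. Group 3 followed with 18.8 ± 1.05 FPKM, nearly all from HOXB3, then group 9 with 16.8 ± 0.83 and group 7 with 15.4 ± 0.70 FPKM. Groups 2 and 12 were lowest, at 0.63 and 0.43 FPKM. With members of under 10% exon overlap group 9 held 23.9% of the HOX total and group 10 held 20.5%. Their order thus depends on genes that share exons too. Such genes were left out whole, among them HOXD10 with an overlap of 16.8%, and reads in shared exons were not separated. Over all members, paralogs 9 to 13 held 53.3% ± 0.78 of the HOX total in the NC group, paralogs 4 to 8 held 31.4% ± 0.33 and paralogs 1 to 3 held 15.3% ± 0.62. Exons of HOXA3, HOXB3 and HOXD3 overlap those of other genes over 17.9%, 13.2% and 74.1% of their length. The share of paralogs 1 to 3 thus rests mostly on genes that share exons. Each cluster had its own run along the DNA. In HOXD the level climbed from HOXD8 at 4.21 FPKM to HOXD10 and came down again to HOXD12 at 0.43 FPKM, with HOXD13 above it at 2.96 FPKM. In HOXC the highest gene, HOXC10, lay next to HOXC11, which had no reads, and HOXC13 at the 5′ end was transcribed past the silent HOXC11 and HOXC12.

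**Figure D2:**
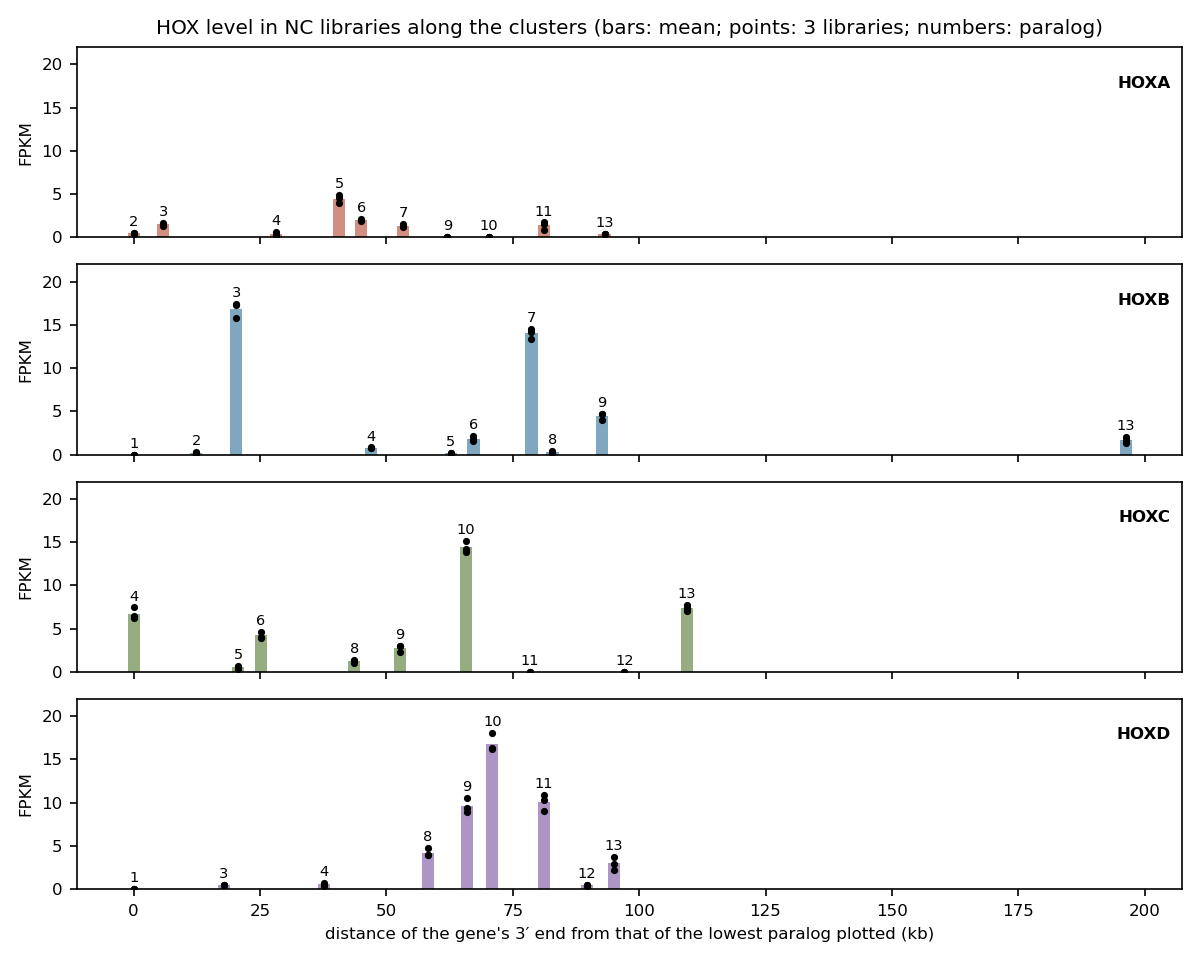
Level of 38 HOX genes in the NC libraries against its place in the cluster, as the distance in kb between its 3′ end and that of the lowest paralog plotted. Bars are means, points are the 3 libraries and the numbers are paralog numbers. HOXD has a continuous block from paralog 8 to 11, HOXB3 and HOXB7 stand above their neighbours, and HOXB13 lies 196 kb from HOXB1.

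The order of the single genes was steady between NC libraries for some neighbours and not for others. HOXB3 was measured at 15.8, 17.4 and 17.3 FPKM and HOXD10 at 18.03, 16.2 and 16.3 FPKM in NC replicates 1 to 3, so that their ranges overlapped. HOXC10, at 14.2, 15.1 and 13.9 FPKM, lay below HOXD10 in every library. Its range overlapped that of HOXB7, at 13.4, 14.1 and 14.5 FPKM. The 4 highest HOX genes were all apart from HOXD11, at 9.05, 10.3 and 10.9 FPKM, whose range overlapped that of HOXD9. HOXC13 and HOXC4 came next with overlapping ranges, and HOXA5, the highest HOXA gene, overlapped with HOXB9, which in turn overlapped with HOXD8. From rank 15 to rank 22, that is from HOXA6 to HOXC8 at between 2.0 and 1.2 FPKM, every neighbouring pair overlapped.

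Silent and nearly silent members made up the rest. HOXA9, a regulator of blood stem cells, HOXA10, which patterns the uterus, HOXB1, a hindbrain gene, and HOXC11 and HOXC12 had 0 reads in all 6 libraries. For these 5 genes 3 reads in a library would have given between 0.022 and 0.050 FPKM, which limits their level for counting error only. HOXA9 has 2210 and HOXA10 has 2731 exonic bases that no other gene shares, so that sharing did not cover the whole of either gene. Another 13 members had reads but stayed below the filter. These were HOXA2, HOXA4 and HOXA13, HOXB2, HOXB4, HOXB5 and HOXB8, HOXC5 and HOXC8, and HOXD1, HOXD3, HOXD4 and HOXD12, with NC means from 0.035 FPKM for HOXD1 to 1.21 FPKM for HOXC8. Exons of HOXD3 and HOXD4 overlapped those of other genes over 74.1% and 80.5% of their length, mostly AC009336.2, and exons of HOXC5 over 59.9%, so that their reads are uncertain. The library kit named in the labels does not mark strand, so reads from an antisense partner cannot be told apart either.

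After TNF-α no HOX gene passed the threshold. Of the 21 tested HOX genes 0 had an adjusted p under 0.05 in limma, against 1.01% of all tested genes (123 of 12136), split into 0.717% above and 0.297% below the NC group. At an unadjusted p under 0.05 there were 6 HOX genes, HOXA6, HOXA7, HOXB6, HOXB9, HOXC9 and HOXC13, that is 28.6% against 24.2% of all tested genes. One of them, HOXA7, was tested only because its NC libraries reached 1 FPKM, so its groups had to differ. With voom on the recovered reads 0 HOX genes passed as well (background 0.923%). Under other settings 1 passed, HOXB9 with quantile normalization (background 1.52%) and with protein-coding genes alone (1.25%), and HOXC13 with a correction for GC content and length (2.78%). The estimate was above 0 in 12 HOX genes (background 53%) and below 0 in 9, with a median of 0.12 on the log2(FPKM + 1) scale beside 0.04 over all tested genes. In FPKM the NC and TNF-α libraries did not overlap in 8 of the 21 genes, against 30.1% of all tested genes. Among the 8, 3 were higher after TNF-α (background 14.8%) and 5 lower (background 15.3%). HOXA7 is among the 5 lower, and the filter itself set its groups apart. Of the 3 higher genes HOXB9 stayed apart as TPM, whereas HOXB6 and HOXC9 overlapped.

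The clusters differed in the sign of their medians, which are given as a description because genes of a cluster are not replicates. The median difference was 0.54 in HOXB, 0.15 in HOXD, 0.12 in HOXC and -0.15 in HOXA, and it turned below 0 with the GC and length correction in HOXC (-0.16) and HOXD (-0.51) and with TPM in HOXC (-0.34) and HOXD (-0.33). In HOXB it was 0.10 with the correction and 0.22 with TPM, and in HOXA -0.36 and -0.62. TPM moved the median of all tested genes to -0.42. Taken library by library, HOXB had a median of -0.015 in TNF-α replicate 1, of 0.67 in replicate 2 and of 0.73 in replicate 3. HOXC had -0.088, 0.19 and 0.24 and HOXD had -0.088, 0.21 and 0.13 in the same order. In HOXA the 3 treated libraries had medians of -0.18, -0.20 and -0.12, all below 0. In the other clusters the median was below 0 in replicate 1 and above 0 in replicates 2 and 3. So was that of all tested genes, at -0.0065, 0.076 and 0.052. In single NC libraries the medians ran from -0.087 to 0.084 in HOXA and from -0.063 to 0.041 in HOXB. They ran from -0.034 to 0.0068 in HOXC and from -0.060 to 0.105 in HOXD. As sums, HOXB was at 38.6, 40.4 and 41.5 FPKM in NC cultures, against 45.0, 65.5 and 56.1 FPKM in treated cultures, where its share of all HOX FPKM was 34.6% to 37.7% against 28.96% to 29.9%. All 3 treated libraries lay above the NC libraries in the HOXB share, which does not depend on the library total. The part of GC content and length in this share was not tested. As FPKM the HOXB sums of the 3 treated libraries lay above the NC libraries too. As TPM, a scaling of the sums added after the data were seen, HOXB summed to 149, 158 and 156 in NC cultures. In treated cultures the TPM sums were 169, 141 and 138, with replicates 2 and 3 below the NC libraries. The HOXA share was 8.97% to 10.3% in the NC libraries and 5.52% to 8.65% in the treated libraries.

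**Figure D3:**
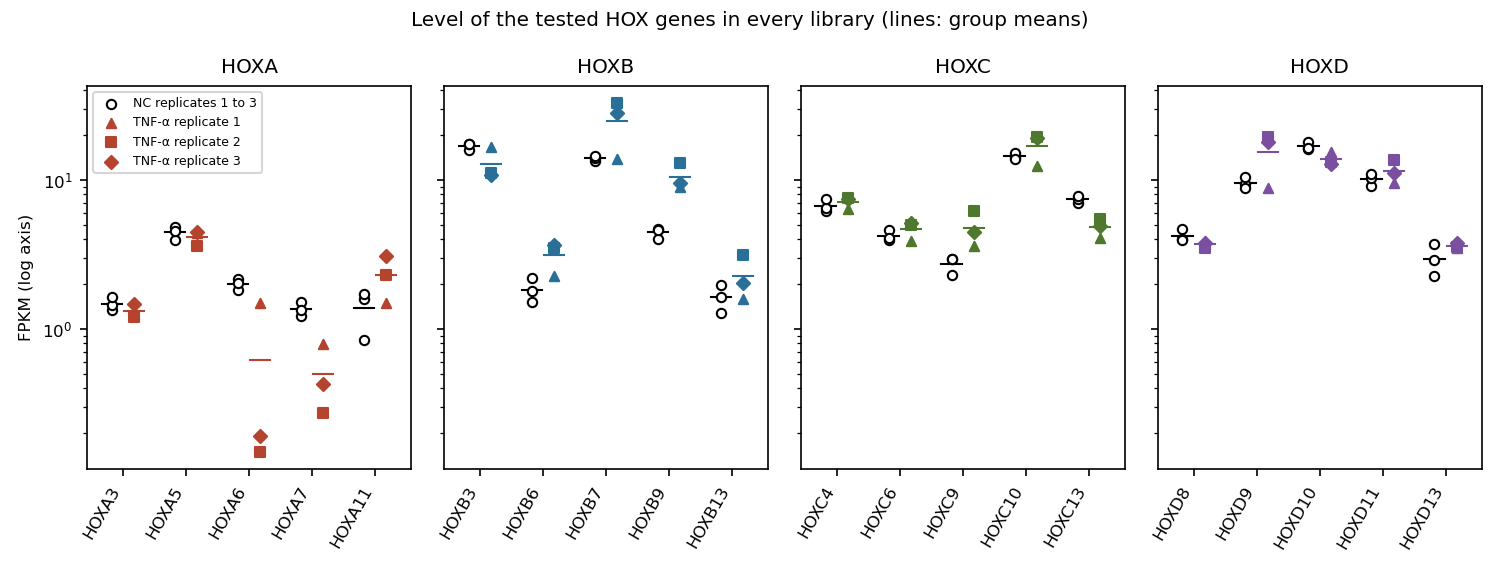
FPKM of 20 tested HOX genes in every library on a log axis, by cluster. Open circles are NC replicates 1 to 3, filled triangles, squares and diamonds are TNF-α replicates 1, 2 and 3, and lines are group means. HOXB9 has all treated libraries at 8.96 FPKM or above and all NC libraries at 4.70 FPKM or below, and the squares and diamonds of HOXB7 and HOXD9 stand far above their triangles.

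HOXB9, which patterns the thoracic skeleton, had the largest difference of the tested HOX genes on the log2(FPKM + 1) scale, ahead of HOXA6 at -0.99. HOXA6 was ahead with a pseudocount of 0.1 (-2.10 against 1.20), with TPM (-1.89 against 0.68), with the GC and length correction (-1.56 against 0.70) and with voom on the reads (-2.41 against 1.16). HOXB9 lies at chr17:48621159-48626356 on the minus strand (GRCh38) and shares no exonic base with another gene. It was measured at 4.70, 4.03 and 4.63 FPKM in NC cultures, against 8.96, 13.005 and 9.49 FPKM in treated cultures, from 341 to 438 and from 595 to 870 reads. In FPKM the groups were far apart, and the lowest treated library was 1.91 times the highest NC library. The log2 difference was 1.06 with an SE of 0.17 (95% interval 0.65 to 1.47), and the adjusted p of 0.0563 in limma just missed the threshold. Its adjusted p was 0.0274 with quantile normalization, 0.059 with voom on the reads, 0.178 with TPM and 0.213 with the replicate block. Without TNF-α replicate 1 it was 0.000118, in a fit where 79.4% of all tested genes passed. Over all alternatives it ran up to 0.363. TNF-α replicate 1 alone differed from the NC mean by 0.87.

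The other HOXB genes followed mostly in TNF-α replicates 2 and 3. HOXB7, a trunk gene that tumours often overexpress, was at 13.8 FPKM in TNF-α replicate 1, within the NC range, and at 32.6 and 27.9 FPKM in replicates 2 and 3. Its log2 difference was 0.70 with an SE of 0.31 (adjusted p = 0.195, limma). HOXB6 was at 1.51, 2.19 and 1.81 FPKM in NC cultures, against 2.27, 3.50 and 3.68 FPKM after TNF-α, a difference of 0.54 with groups that barely did not overlap, and 32.9% of its exonic bases overlap other genes. The GC and length correction gave 0.099 for HOXB6 (adjusted p = 0.606, limma) and 0.36 for HOXB7, and TPM gave 0.23 and 0.22. On the TPM scale the groups of HOXB6 overlapped. HOXB13, which patterns the tail and the prostate, was at 1.58, 3.13 and 2.04 FPKM after TNF-α against 1.28 to 1.99 FPKM. HOXB3, a hindbrain and pharyngeal gene and the longest of the tested members, differed in the other direction at 16.6, 11.1 and 10.8 FPKM, again with replicate 1 within the NC range, and its difference was -0.39, or -0.90 with TPM. Below the filter, HOXB4 had 0.744, 0.820 and 0.754 FPKM in NC cultures, against 1.03, 0.934 and 1.32 FPKM after TNF-α, and HOXB8 had 52 reads over the NC libraries and 103 over the treated libraries. In FPKM the groups of HOXB4 and of HOXB8 did not overlap, whereas as TPM both overlapped.

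In HOXA the neighbours HOXA6 and HOXA7, trunk genes that lie next to each other, were lower in every treated library. HOXA6 had 1.83, 2.16 and 2.03 FPKM in NC cultures, against 1.502, 0.150 and 0.192 FPKM in treated cultures, the last values resting on 5 and 6 reads. The log2 difference was -0.99 with an SE of 0.31 (adjusted p = 0.195, limma), and replicates 2 and 3 lay far below replicate 1. HOXA7 had 1.22, 1.52 and 1.34 FPKM against 0.787, 0.272 and 0.427 FPKM, a difference of -0.67 (adjusted p = 0.159, limma). HOXA7 passed the filter through its NC libraries only, so that its groups had to differ. With TPM and with the GC and length correction the difference was -1.89 and -1.56 for HOXA6 and -1.41 and -1.06 for HOXA7. Exons of the antisense gene HOXA-AS3 cover 39.3% of HOXA6 and 62.5% of HOXA7. The highest HOXA gene, HOXA5, which patterns the lung and thorax, was at 3.97, 4.84 and 4.56 FPKM in NC cultures. In treated cultures it was at 4.41, 3.59 and 4.49 FPKM, with overlapping groups and a 95% interval of -0.41 to 0.25. HOXA3, a pharyngeal gene, overlapped too, at 1.35 to 1.63 FPKM and 1.21 to 1.47 FPKM. HOXA11, which patterns limb and kidney, was at 0.840, 1.59 and 1.71 FPKM in NC cultures, against 1.48, 2.31 and 3.09 FPKM in treated cultures, with an overlap from replicate 1, and 31.1% of its exonic bases are covered by HOXA11-AS. HOXA13, below the filter, had 202 NC reads and 98 TNF-α reads with groups that did not overlap.

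The windows before the RefSeq starts of HOXA6, HOXA7 and HOXD8 are shown because these are tested genes of non-overlapping groups with an entry in the promoter table and a start inside a GENCODE transcript. RefSeq promoters (GRCh38.p14) were matched for 20 of the 39 HOX genes, in 27 entries. HOXD10 had an entry too, and most of its window is exonic, so it is not shown. HOXB9, HOXB6, HOXC9 and HOXC13 are among the 19 genes without a match. Each run is read 5′ to 3′ towards the gene, exonic bases were left out, and capitals mark matches to GGGNNNNNCC, a common form of the NF-kB site, on either strand, with overlapping matches joined. The HOXA6 window is chr7:27147775-27148024 (minus strand, in an intron of the longest annotated transcript), the HOXA7 window chr7:27156755-27156925 (minus strand, also intronic in a longer transcript) and the HOXD8 window chr2:176129455-176129693 (plus strand, ending at the annotated gene start).
HOXA6: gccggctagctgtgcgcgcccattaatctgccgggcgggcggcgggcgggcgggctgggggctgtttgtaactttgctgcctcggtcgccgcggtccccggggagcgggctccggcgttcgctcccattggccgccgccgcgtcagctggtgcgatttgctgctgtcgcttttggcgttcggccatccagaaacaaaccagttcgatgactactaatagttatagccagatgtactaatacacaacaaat
HOXA7: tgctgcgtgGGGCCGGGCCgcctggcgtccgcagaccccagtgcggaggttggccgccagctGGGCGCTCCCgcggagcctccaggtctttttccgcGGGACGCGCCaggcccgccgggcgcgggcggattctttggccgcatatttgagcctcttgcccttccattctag
HOXD8: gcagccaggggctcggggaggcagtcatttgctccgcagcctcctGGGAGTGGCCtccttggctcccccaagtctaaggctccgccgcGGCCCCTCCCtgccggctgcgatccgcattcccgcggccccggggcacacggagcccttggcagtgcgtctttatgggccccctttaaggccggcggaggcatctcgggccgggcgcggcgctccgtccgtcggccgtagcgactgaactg

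The HOXA7 window held 3 matches, the HOXD8 window 2 and the HOXA6 window 0. Such matches are common. Over the 250 bases before the start, 54.4% of 35114 promoters held at least 1, and so did 15 of the 27 HOX entries (55.6%). TGATTNAT, a form of the PBX-HOX site, was in 2 of 27 HOX entries (7.41%) and 2.48% of all promoters, and TATAAA in 5 of 27 (18.5%) and 10.7%. The HOX windows were rich in CpG, with a median of 19 CpG per window against 11 over all promoters. The 3 runs shown hold 27 CpG in HOXA6, 20 in HOXA7 and 25 in HOXD8. A match describes these letters and not a bound site.

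HOXC13 and HOXC9 differed in opposite directions in the HOXC cluster. HOXC13, a regulator of hair and nail keratins at chr12:53938765-53946544 (plus strand), was at 7.001, 7.42 and 7.75 FPKM in NC cultures, against 4.08, 5.48 and 4.91 FPKM in treated cultures. The groups did not overlap, replicate 1 was the lowest, and the log2 difference was -0.53 with an SE of 0.14 (adjusted p = 0.172, limma). With the GC and length correction its adjusted p was 0.0207, and HOXC13-AS overlaps 7.10% of its exonic bases. HOXC9, a thoracic motor neuron gene, was at 2.97, 2.96 and 2.30 FPKM in NC cultures, against 3.58, 6.23 and 4.46 FPKM after TNF-α, a difference of 0.60 with groups that did not overlap (adjusted p = 0.195, limma). With the correction the HOXC9 difference was 0.14 (adjusted p = 0.514, limma) and with TPM 0.24, and that of HOXC13 was -0.98 and -1.07. The HOXC9 groups overlapped as TPM. HOXC10, a lumbar motor neuron gene, was at 12.4 FPKM in TNF-α replicate 1, below all NC libraries, and at 19.4 and 19.2 FPKM in replicates 2 and 3, above all of them. HOXC6, a thoracic gene, had the same split at 3.89, 4.95 and 5.15 FPKM against 3.94 to 4.61 FPKM. HOXC4 stayed close, at 6.35, 7.55 and 7.47 FPKM against 6.22 to 7.44 FPKM, with a 95% interval of the difference of -0.25 to 0.39. HOXC8, below the filter, had 232 NC reads and 122 TNF-α reads with groups that did not overlap.

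In HOXD the highest gene, HOXD10, which patterns limb and lumbar spinal cord, was at 15.4, 13.1 and 12.8 FPKM after TNF-α. It was at 16.2 to 18.03 FPKM in NC cultures. The groups did not overlap, and the log2 difference was -0.27 with an SE of 0.13 (adjusted p = 0.197, limma). HOXD8 was lower in all treated libraries as well, at 3.89, 3.49 and 3.76 FPKM against 3.93 to 4.72 FPKM, by a difference of -0.14 (95% interval -0.44 to 0.15). TPM and the GC and length correction gave -0.78 and -0.51 for HOXD10, and -0.63 and -0.67 for HOXD8. HOXD9, another limb gene, had an estimate of 0.57 with an SE of 0.29 (adjusted p = 0.206, limma). It was at 8.87 to 10.5 FPKM in the NC libraries, at 8.84 FPKM in TNF-α replicate 1 and at 19.5 and 18.04 FPKM in replicates 2 and 3, so that replicate 1 was just below the NC libraries and the others far above, and the estimate was -0.05 with the GC and length correction. HOXD11, a forearm gene, was at 9.50, 13.7 and 11.1 FPKM after TNF-α with replicate 1 within the NC range, and HOXD13, a digit gene, was at 3.51, 3.53 and 3.75 FPKM against 2.26 to 3.72 FPKM. HOXD12 had 59 NC reads and 28 TNF-α reads, and its groups did not overlap.

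**Figure D4:**
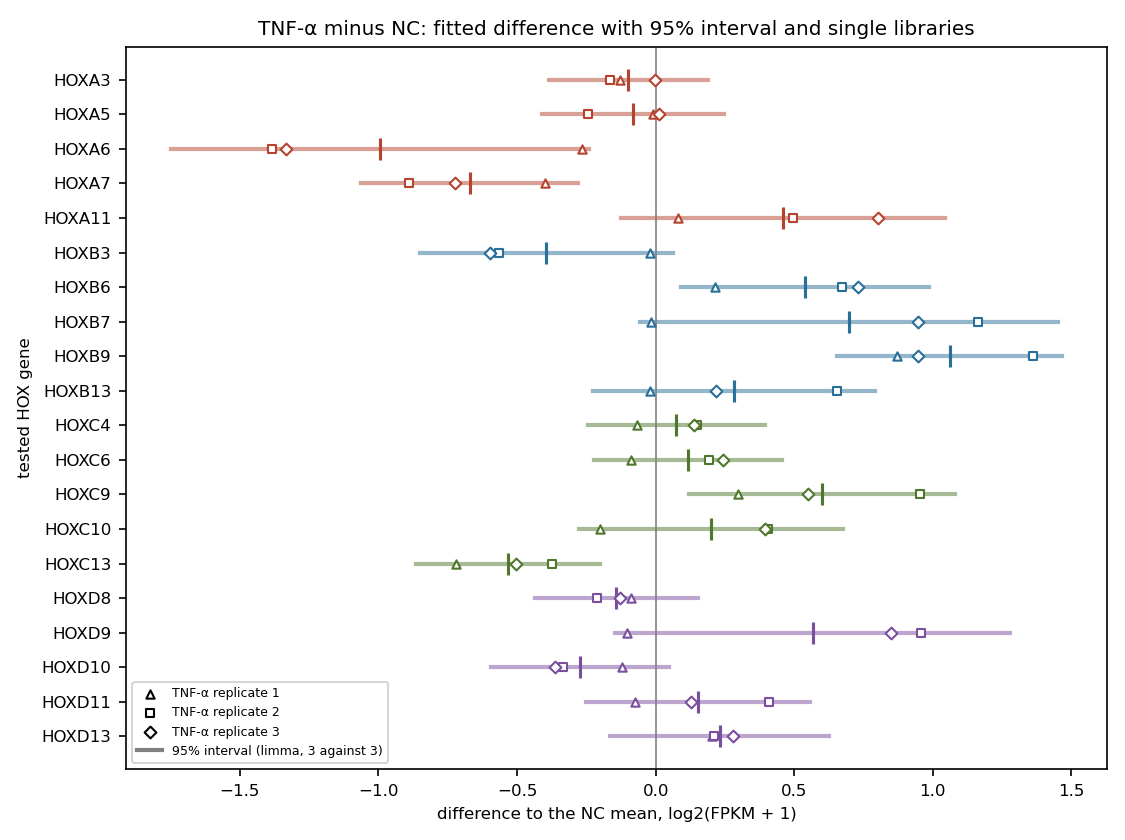
Difference of the TNF-α group from the NC group in log2(FPKM + 1) for 20 tested HOX genes. Bars are the 95% interval of the limma fit (n = 3 against 3) with the estimate as a tick, and open triangles, squares and diamonds are TNF-α replicates 1, 2 and 3 against the NC mean. The intervals of HOXA6, HOXA7, HOXB6, HOXB9, HOXC9 and HOXC13 do not cross 0. In HOXB7, HOXB13, HOXC4, HOXC6, HOXC10, HOXD9 and HOXD11 replicate 1 lies at the other side of 0 from replicates 2 and 3.

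The treated libraries fell into 3 kinds of pattern over the tested HOX genes. All 3 lay on the same side of the NC range in 8 genes, which are those without overlap (background 30.1%). HOXA7, whose groups the filter itself set apart, is among them. In 6 genes, HOXA11, HOXB3, HOXB7, HOXB13, HOXC4 and HOXD11, replicate 1 lay within the NC range and replicates 2 and 3 outside it on a common side (background 29.5%). In 3 genes, HOXC6, HOXC10 and HOXD9, replicate 1 lay on the opposite side from replicates 2 and 3 (background 27.3%). HOXA3, HOXA5 and HOXD13 were among the remaining 4. Replicate 1 was outside the NC range in 13 of 21 HOX genes (background 64.8%), replicate 2 in 19 (92.9%) and replicate 3 in 19 (92.1%). Without TNF-α replicate 1, 14 of the 21 HOX genes passed the threshold, against 79.4% of all tested genes in that fit, and HOXA3, HOXA5, HOXC4, HOXD8, HOXD11 and HOXD13 were among the 7 that did not.

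Partners of the HOX proteins were examined as a list of TALE cofactors, of which 8 of 9 were tested. None rose and none fell at the threshold (0 of 8, against 1.01% of all tested genes in limma), 2 had an unadjusted p under 0.05 (background 24.2%), and the median was -0.16. MEIS2 had the highest NC mean and was at 16.9, 16.9 and 17.0 FPKM in NC cultures, against 15.96, 8.49 and 9.15 FPKM after TNF-α. Its groups did not overlap, with replicate 1 close to the NC libraries. PBX2 and PBX3 had estimates of -0.19 and -0.13.

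Chromatin regulators of the HOX clusters were all measured, with 32 of 32 tested, 0 past the threshold in either direction (background 1.01%, limma), 6 with an unadjusted p under 0.05 (background 24.2%) and a median of -0.13. EZH2, the Polycomb methyltransferase, was at 30.4, 30.05 and 30.8 FPKM in NC cultures, against 28.0, 33.0 and 32.2 FPKM after TNF-α, with an estimate of 0.03 and an SE of 0.13. The cohesin gene RAD21 and the Polycomb gene PHC2 were the other genes of high level, with estimates of -0.80 and 0.88. The largest estimates were those of PHC3, at -1.21 (adjusted p = 0.195, limma), and KMT2A, the trithorax methyltransferase that keeps HOX genes on, at -0.92 (adjusted p = 0.195, limma). KMT2A was at 5.57 FPKM in TNF-α replicate 1, above its NC range of 5.33 to 5.53 FPKM, and at 1.32 and 1.56 FPKM in replicates 2 and 3. PHC3 was at 5.66 FPKM in replicate 1, within its NC range, and at 0.803 and 1.03 FPKM in replicates 2 and 3.

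Of 16 retinoid and CDX genes upstream of the clusters 8 were tested, and 0 passed in either direction (background 1.01%, limma), with 2 at an unadjusted p under 0.05 (background 24.2%) and a median of -0.02. The retinoid receptor gene RXRA was at 5.21, 5.75 and 5.54 FPKM in NC cultures, against 3.36, 3.28 and 3.46 FPKM after TNF-α. All 3 treated libraries were alike and below the NC libraries, with a difference of -0.57 and an SE of 0.11 (adjusted p = 0.0968, limma). RARB, the receptor gene of highest level, was at 22.3 to 23.1 FPKM and at 23.9, 17.7 and 17.6 FPKM. RXRB had an estimate of 0.38, and CRABP2, which carries retinoic acid in the cell, an estimate of 0.75 (adjusted p = 0.195, limma).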

How the data were processed

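Per the labels, poly(A) RNA of 6 U251 cultures was made into libraries with a kit that does not mark strand, and a service company sequenced them. The submitters' processing notes name HISAT2 2.0.5, StringTie 1.3.3b and featureCounts 1.5.0. The genome build and whether counting used strand were not given in the sources used here. The authors deposited FPKM for 58735 genes, 1 value per library and gene, with the gene length in bases (another deposited column). All genes matched GENCODE 29 on GRCh38 in identifier, name, position and merged exon length. Another 6 columns of per-sample values match no sample here and were not used.

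FPKM times gene length was a whole multiple of a step per library (tolerance 0.01), which gave the reads. Groups came from the sample titles. Tests used limma 3.58.1 in R 4.3.3 (eBayes with a trend, two-sided) on log2(FPKM + 1), pseudocount 1, for the 12136 genes that reached 1 FPKM in 3 or more libraries. P-values were adjusted by Benjamini-Hochberg over all of them at a threshold of 0.05. Fold changes on this scale understate the change of low genes. The fit was tested on simulated data. Tables were made with Python 3.11.15, pandas 2.3.3 and numpy 2.4.6, and plots with matplotlib 3.10.9. Intervals in reads cover counting error only, since PCR copies cannot be told from molecules.

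The genes named are, in each cluster, the 3 highest in the NC group, the gene of largest difference and those with groups apart by at least 0.5. Of each list the 3 highest and the 2 of largest difference are named, and the other HOX genes are accounted for. Some genes enter the counts and are not reported here by name. HOX members, lists and tests were chosen with earlier results of these data known. Genes whose exons overlap were kept, with the overlap given. Alternatives were pseudocounts of 0.1 and 0.5, other filters, TPM, quantile normalization, median centring, eBayes without trend or robust, the replicate block, leaving out libraries, a GC and length correction by splines, voom on the recovered reads, and protein-coding genes alone.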

Additional observations from a re-analysis of the deposited data

How the results depend on the processing

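The number of HOX genes past the threshold, 0, became 1 with quantile normalization (HOXB9), 1 with the GC and length correction (HOXC13) and 1 with protein-coding genes alone (HOXB9), and ran from 0 to 14 when 1 library was left out, with 14 without TNF-α replicate 1. Over all genes the count of 123 became 58 without a filter, 79 with an FPKM of at least 5, 58 with TPM, 185 with quantile normalization and 337 with the GC and length correction, and ran from 10 to 9630 when 1 library was left out. For the 5 lists of other genes the count of 0 became 2 with the correction and ran from 0 to 63. Deviations from the group means correlated by -0.01, -0.18 and 0.12 between same-numbered NC and TNF-α libraries. With 3 libraries per group this cannot decide whether the replicate number pairs cultures. With that number as a block the count was 24 over all genes and 0 in HOX genes.

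Of the 21 HOX estimates, 11 kept their sign in every alternative run and 10 did not. TPM gave HOXB13 -0.069, HOXC4 -0.40, HOXC6 -0.34, HOXC10 -0.29, HOXD11 -0.33 and HOXD13 -0.18. Taken relative to the TPM median of all genes, which largely undoes the TPM scaling, 21 of 21 kept their sign. The GC and length correction gave HOXC4 -0.22, HOXC6 -0.10, HOXC10 -0.16, HOXD9 -0.052, HOXD11 -0.51 and HOXD13 -0.027. Quantile normalization gave HOXA3 0.044, HOXA5 0.0033 and HOXC10 -0.011, and leaving out 1 library gave HOXA5 values from -0.15 (without NC replicate 1) to 0.0011 (without TNF-α replicate 2). Without TNF-α replicates 2 and 3 the values were HOXB7 -0.015, HOXB13 -0.022, HOXC4 -0.067, HOXC6 -0.088, HOXC10 -0.20, HOXD9 -0.10 and HOXD11 -0.076.

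The HOXA median was -0.24 and -0.19 with pseudocounts of 0.1 and 0.5, -0.098 with an FPKM of at least 0.5 and over all members, -0.62 with TPM, -0.020 with quantile normalization, -0.19 with median centring, -0.36 with the GC and length correction, -0.32 with voom, and from -0.18 to -0.087 when 1 library was left out. The HOXB median was 0.10 with the correction and -0.015 without TNF-α replicates 2 and 3. The HOXC median was -0.34 with TPM, -0.16 with the correction and -0.088 without those libraries, and the HOXD median -0.33, -0.51 and -0.088, with -0.014 without a filter and over all members. With members of under 10% exon overlap the NC share of HOXC was 36.7% and that of HOXD 24.5%. Causes were not tested. Genes with few reads, such as HOXA6 after TNF-α, are limited by depth.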

Other observations

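Noncoding genes of the clusters were mostly silent. Of 64 that lie in a cluster or within 20 kb of it, 37 had 0 reads in all libraries, 9 were tested and 0 passed the threshold in either direction (limma, against 1.01% of all tested genes), with 3 of 9 at an unadjusted p under 0.05 against 24.2%. HOXD-AS2 was at 2.401, 4.55 and 3.66 FPKM in NC cultures, against 3.05, 3.78 and 3.54 FPKM after TNF-α, with overlapping groups. HOXB-AS2 was at 3.37, 2.96 and 2.73 FPKM and at 2.17, 0.731 and 0.292 FPKM, a difference of -1.06 (adjusted p = 0.195, limma). The processed pseudogene AC016739.1 in the HOXD region was at 12.0, 11.5 and 13.5 FPKM and at 8.57, 72.0 and 43.6 FPKM, and a pseudogene can take reads of its parent gene. MIR10B, the gene of a microRNA that targets HOXD10, had 8 reads in each NC library, 6 in TNF-α replicate 1 and is listed at 0 in replicates 2 and 3, in libraries that do not measure the mature microRNA.

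Protein-coding genes that start within 500 kb of a cluster numbered 46, of which 24 were tested and 0 passed in limma (background 1.01%), 5 had an unadjusted p under 0.05 (background 24.2%), and the median difference was 0.30 beside 0.04 over all tested genes. The splicing factor gene HNRNPA1, beside HOXC, was at 180 to 188 FPKM in NC cultures, against 169, 265 and 257 FPKM after TNF-α. NFE2L1 and CBX1, beside HOXB, had estimates of -0.28 and -0.10. The largest estimates were 1.03 for ATP5MC1, a subunit of mitochondrial ATP synthase beside HOXB, and 0.99 for PRR13 beside HOXC (adjusted p = 0.195 for both, limma). ATP5MC1 was at 15.8 FPKM in TNF-α replicate 1, within the NC range of 15.5 to 16.6 FPKM, and at 56.4 and 44.2 FPKM in replicates 2 and 3. That pattern, with replicate 1 within the NC range and replicates 2 and 3 outside on one side, held for 29.5% of all tested genes.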
